A study of Mus musculus with 6 samples.

Results

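Plac8, Onecut2, Ms4a4b, Gpr18, P2ry14 and Serpine2 are 6 mouse genes picked because they stood among those highest in Th1 cells against at least one other helper T cell subset. They are 6 of 12093 named genes tested. They were chosen by the measured Th1 differences against Th9 or Th17, with no numeric limit, so the size of those differences is described below and not tested. All 12 probes that carry these symbols or a synonym were taken, and 11 of them were above background on 2 or more arrays. Each of the 6 genes passed that filter, which a gene high in Th1 alone can do through its 2 Th1 arrays.

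The samples were Th1, Th9 and Th17 cells with 2 Illumina bead arrays each, 6 in all. Per the labels, the cells had been transferred into tumour-bearing mice and were sorted from the spleen as CD45.1 and CD4 positive cells 12 days later. CD45.1 is a surface allele that marks the transferred donor cells, CD4 marks helper T cells, and the background strain was C57BL/6 in every group. The labels give no treatment other than the kind of T cell, and call the other array of each kind a repeat without saying whether it came from separate mice, so the p-values cover array-to-array spread that could be purely technical.

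CD4 helper T cells differentiate into subsets that are told apart by the cytokines they release. Th1 cells are driven by the transcription factor T-bet, make interferon gamma and respond to interferons, Th9 cells are named for interleukin 9, and Th17 cells for interleukin 17. The 6 genes belong to different families. Plac8 encodes a small cysteine-rich protein of immune and epithelial cells, and Onecut2 a homeobox transcription factor known from the liver, pancreas and nervous system. Ms4a4b encodes a membrane-spanning protein of T cells. Gpr18 and P2ry14 encode G protein-coupled receptors, of which P2RY14 is activated by UDP-glucose and other UDP sugars, and Serpine2 encodes a secreted inhibitor of thrombin and plasminogen activators.

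Intensities below are the deposited values, on a linear scale near 0 for background and not scaled between arrays. Differences are on the log2 scale after background correction with an offset of 50 and quantile normalization, which understates the change of dim genes. A probe was called above background over thresholds of 5.84 to 6.95 intensity units, and 41 to 45.2% of 45281 probes were above it on an array. The mean intensity of an array was 117.1 to 140.6 in Th1, 139.7 to 157.8 in Th9 and 156.7 to 171.1 in Th17. In all, 1286 of 12093 genes (10.6%) differed between Th1 and Th9, 1799 (14.9%) between Th1 and Th17, and 2293 (19%) between Th9 and Th17, when limma was run over all genes and a Benjamini-Hochberg adjusted p under 0.05 was required. Those higher and lower in the first-named subset numbered 583 and 703 (4.82 and 5.81%), 894 and 905 (7.39 and 7.48%), and 1212 and 1081 (10 and 8.94%). With each array scaled to its median the splits were 186 and 1543, 245 and 2488, and 699 and 924.

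The labels were set against the genes that define each subset. Tbx21, which encodes T-bet, was at 56.2 and 54.2 in Th1, 9.1 and 1.5 in Th9, and 2.1 and -5.4 in Th17. Ifng was at 27.5 and 22.1 in Th1, 6.1 and 5.0 in Th9, and 7.2 and 0.9 in Th17. Both defining Th1 genes were therefore above background on both Th1 arrays, at low intensity. The Tbx21 calls and the Ifng calls (limma adjusted p = 3.26e-06 and 0.0044 against Th9) ended without background correction. Of 16 Th1 genes tested, Th1 exceeded Th9 in 11 and Th17 in 8 at the test's threshold, beside 4.82 and 7.39% of all genes. Il2 was lower in Th1 than in Th9 (-0.63 ± 0.11), and Stat4 lower than in Th17 (-0.42 ± 0.11). Il18r1 was at 815 and 764.6 in Th1, 69.1 and 48.1 in Th9, and 1099.8 and 905.1 in Th17. It did not separate Th1 from Th17 (0.06 ± 0.13, limma adjusted p = 0.819). Gata3, the factor of type 2 helper cells that Th9 cells share, was at 130.8 and 93.2 in Th1, 1103.9 and 1234.5 in Th9, and 373.1 and 386.6 in Th17. Of 12 genes tested from the Th9 and type 2 list, Th9 exceeded Th1 in 7 and Th17 in 7, beside 5.81 and 10% of all genes, and 0 were lower in Th9. Il4 was at -0.5 and 0.1 in Th1, 742.8 and 844.3 in Th9, and 146.3 and 114.4 in Th17. Irf4 was at 298.2 and 261.3 in Th1, 890.5 and 1114.8 in Th9, and 169.1 and 161.5 in Th17. The Il9 probe was below the threshold on all 6 arrays, and Il17a was above it on 1 array of each subset. Of 12 Th17 genes tested, Th17 exceeded Th1 in 6 and Th9 in 7 at the test's threshold, beside 7.48 and 8.94% of all genes. Among them Rora, a factor of Th17 cells, was at 30.5 and 25.3 in Th1, 42.4 and 48.6 in Th9, and 143.4 and 137.7 in Th17. Ccr6, also on the Th17 list, was at 82.2 and 60.8 in Th1, 66.4 and 83.8 in Th9, and 61.3 and 44.9 in Th17. It went the other way, higher in Th1 than in Th17 by 0.49 ± 0.11 (limma adjusted p = 0.00371). The cytokine genes Il17f (7.7 and 15.6) and Il21 (32.6 and 19.7), named after their values were seen, were above background in Th17 alone. All 12 T cell genes tested were above background on every array, with summed intensities of 22851.2 to 27491.4 in Th1, 23897.4 to 26037 in Th9 and 36440.9 to 38622.7 in Th17. After normalization 7 of the 12 were lower in Th1 than in Th17 and 0 higher, beside 7.48 and 7.39% of all genes. In Th9, 8 were lower than in Th17 and 0 higher, beside 8.94 and 10%. Between Th1 and Th9, 1 was higher and 1 lower in Th1. Cd4 was at 24.1 and 36.6 in Th1, 44 and 66.8 in Th9, and 85.8 and 94.1 in Th17. In bulk RNA such as this, fewer cells of a type and less RNA per cell cannot be told apart.

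The 6 genes shared a maximum in Th1 but fell into 3 patterns by the order of the other subsets. Plac8 and Onecut2 stood apart in Th1 with little between Th9 and Th17. Ms4a4b and Gpr18 were next highest in Th17 and lowest in Th9. P2ry14 and Serpine2 were next highest in Th9 and lowest in Th17. Th9 against Th17 is the comparison that the choice did not name, and 4 of the 6 genes passed its test, 2 higher in Th9 (10% of all genes) and 2 lower (8.94%), so 19% of all genes passed. Low levels in Th9 or Th17 helped to choose each gene, so this share is not independent of the choice. Among 221 genes (1.83% of those tested) higher in Th1 than in both other subsets at an adjusted p below 0.05, Th9 was higher than Th17 in 29 (13.1%), lower in 30 (13.6%), and 162 (73.3%) did not pass. The 6 genes are among the 221, which reflects their choice by Th1 differences and is not a test of them.

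For each of the 6 genes both Th1 arrays lay above the 4 other arrays, as they did for 10.1% of all genes, and the choice used that contrast.

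**Figure D1:**
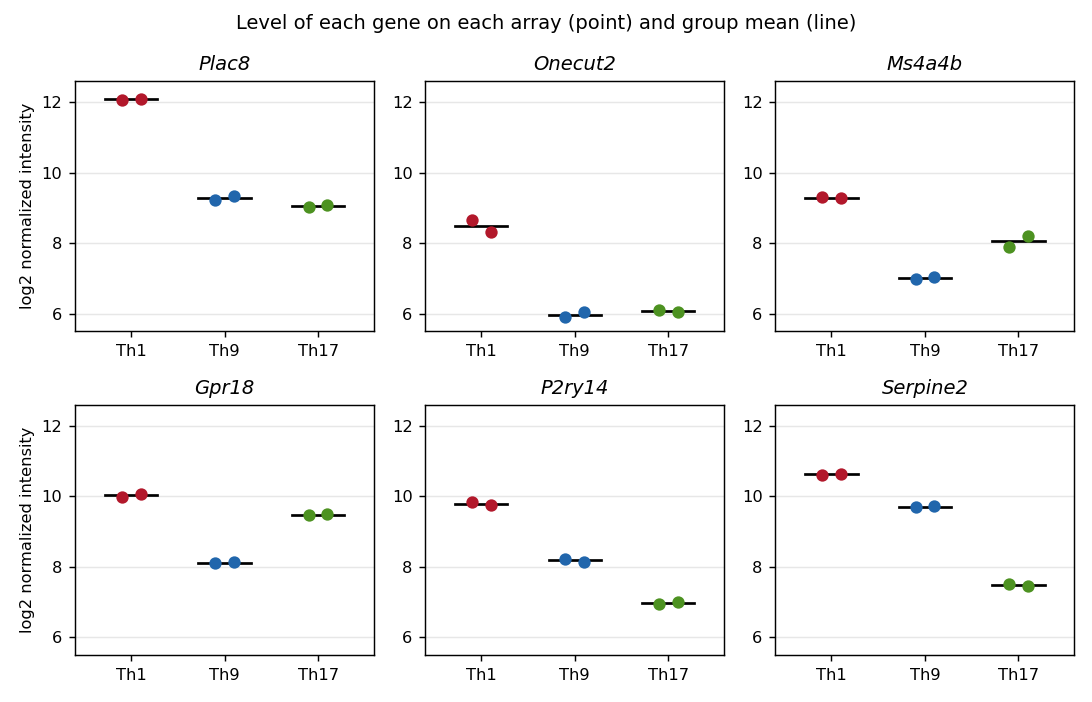
Log2 normalized intensity (vertical axis) of the main probe of each of the 6 genes on the 2 Th1, 2 Th9 and 2 Th17 arrays (points), with the group mean as a line. Th1 is highest in each panel, and the order of Th9 and Th17 differs between the genes.

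Plac8 was clearly above background in every subset and highest in Th1. Its single probe read 4136.1 and 3668.9 in Th1, 518.6 and 664.9 in Th9, and 523.7 and 512.8 in Th17. Both Th1 arrays lay far above the other 4, which lay close together. On the log2 scale Th1 averaged 12.08 ± 0.02, Th9 9.28 ± 0.10 and Th17 9.05 ± 0.05 (SD, n = 2 arrays each). Th1 exceeded Th9 by 2.80 ± 0.11 (SE), or 6.98-fold, and Th17 by 3.03 ± 0.11, or 8.19-fold. These were the 3rd and 4th highest of the 12093 differences in the 2 comparisons. Th9 exceeded Th17 by 0.23 ± 0.11, with a 95% interval of 0.004 to 0.46, and did not pass the test over all genes (limma adjusted p = 0.166). A difference of up to 0.46 between these subsets is therefore within what the arrays allow.

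The Plac8 promoter is shown because it is the 1 promoter of the 9 RefSeq windows of these genes that holds the T-box half-site bound by factors such as T-bet. The RefSeq window of 300 bases (250 before to 50 after an annotated start, GRCm38.p6, minus strand) lies at chr5:100572156-100572455. Capitals mark the T-box letters (TCACACC, read on the other strand) and 3 matches to the Runx letters (TGTGGT, all read on the other strand).
Plac8: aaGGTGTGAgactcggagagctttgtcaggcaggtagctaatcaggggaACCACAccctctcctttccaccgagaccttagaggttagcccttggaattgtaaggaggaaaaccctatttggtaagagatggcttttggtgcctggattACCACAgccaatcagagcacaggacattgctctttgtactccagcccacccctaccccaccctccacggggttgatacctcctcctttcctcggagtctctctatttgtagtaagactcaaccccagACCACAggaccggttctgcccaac
The T-box letters lie from base -248 to -242 and the Runx letters from -201 to -196, -101 to -96 and 26 to 31, counted from the annotated start. T-box letters occur in 3.98% and Runx letters in 16.8% of 32851 RefSeq promoters, so both are found in many promoters. The other Plac8 window, at a start further into the gene, held none of the 8 motifs searched.

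Onecut2 was at background in Th9 and Th17 and well above it in Th1. The probe of highest mean level, which the array's annotation lists under an older clone name, read 308.5 and 189.7 in Th1, -0.1 and 6.8 in Th9, and 9.6 and 5.8 in Th17. A second bright probe read 345.7 and 236 in Th1, 0.1 and 3.7 in Th9, and -1.6 and -0.3 in Th17. Each bright probe thus separated the 2 Th1 arrays from the other 4. The second one was above background on none of the Th9 or Th17 arrays, so its Th1 level was at least 6.23-fold that of Th9 and at least 6.21-fold that of Th17. The third probe read 0 and 8.7 in Th1, 4.1 and 7.2 in Th9, and 0.5 and 7.8 in Th17, near background everywhere and with no separation. The annotation gives it the same transcript as the second bright probe, and why these probes differed was not tested. For the main probe Th1 exceeded Th9 by 2.53 ± 0.12 and Th17 by 2.43 ± 0.12 on the log2 scale. Those sizes depend on the floor: with an offset of 16 they were 3.52 and 3.31, and without background correction 6.95 and 5.43. They also depend on the probe: with the mean of all probes, the near-background one included, they were 1.76 and 1.75. Th9 minus Th17 was -0.10 ± 0.12 (95% interval -0.35 to 0.16, limma adjusted p = 0.686), a difference between readings at background.

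No tested relative of Onecut2 passed as higher in Th1 in limma's test. No probe of Onecut3, a close relative, was above background on more than 1 array. Of 4 other cut-domain and liver transcription factor genes tested with limma, 0 passed between Th1 and Th9 (1 at an unadjusted p under 0.05). Cux1 (-0.38 ± 0.12) and Satb1, a chromatin organizer of T cells (-0.48 ± 0.12), were lower in Th1 than in Th17. The Cux1 call ended in 6 of 13 alternatives and the Satb1 call in 4 of 13. The ATCGAT letters that Onecut factors bind occur in 0.925% of RefSeq promoters and in none of the 9 windows of these genes. Those windows cover the 5 other genes, and no window of Onecut2 itself was searched.

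**Figure D2:**
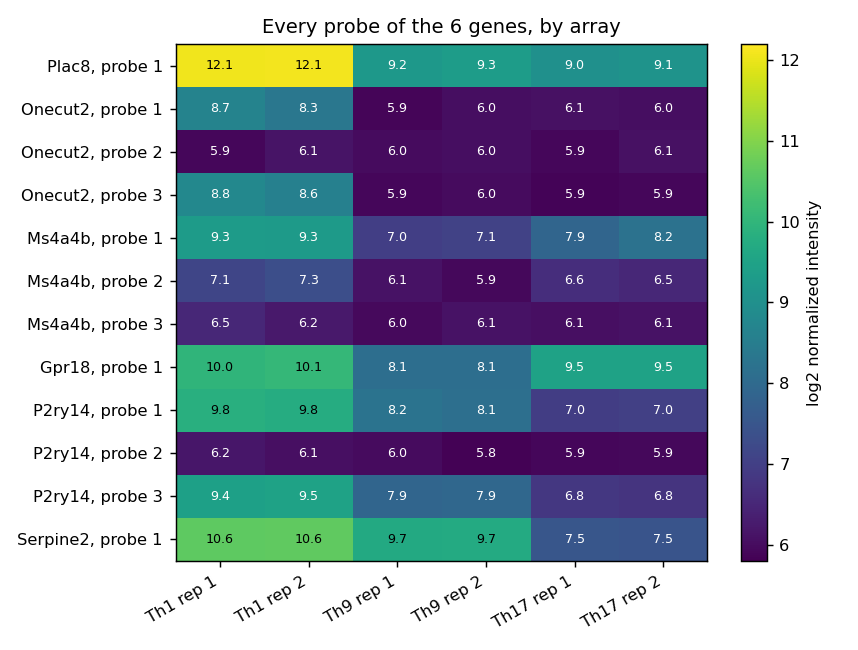
Log2 normalized intensity of each of the 12 probes of the 6 genes (rows) on each array (columns), with the value written in each cell and colour on the same scale. For each gene with several probes the main probe is listed first; a near-background probe of Onecut2, one of Ms4a4b and one of P2ry14 show little or no Th1 maximum.

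Ms4a4b encodes a tetraspan protein that in mouse T cells associates with the costimulatory receptor GITR. Its main probe read 525.6 and 425.3 in Th1, 66.5 and 86 in Th9, and 209.5 and 256.9 in Th17. The 3 subsets did not overlap, with Th17 between the others. Th1 exceeded Th9 by 2.27 ± 0.12 and Th17 by 1.24 ± 0.12 on the log2 scale. With the mean of all its probes these differences were 1.27 and 0.73. Ms4a4b was lower in Th9 than in Th17 by a log2 difference of -1.03 ± 0.12 (limma adjusted p = 1.69e-06). A dimmer probe read 70.5 and 71.6 in Th1, 9.3 and 1.5 in Th9, and 46.4 and 33 in Th17, the same order, and gave -0.55 between Th9 and Th17. The dimmest probe read 26.6 and 11.7 in Th1, 3 and 10.8 in Th9, and 7.5 and 9.7 in Th17. The dimmest probe separated Th1 from the other arrays by little and did not separate Th9 from Th17. No probe sequences were at hand, so whether each probe read Ms4a4b alone or other members of the Ms4a4 group too was not checked and is uncertain.

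Ms4a4b lies in the Ms4a gene cluster, with Ms4a6b and Ms4a4c near it. Ms4a6b was at 348 and 280.2 in Th1, 72.5 and 94 in Th9, and 352.3 and 309.1 in Th17. After normalization Th1 was higher than Th9 by 1.70 ± 0.11 (limma adjusted p = 8.16e-10), and Th1 minus Th17 was 0.32 ± 0.11, which did not pass (adjusted p = 0.052). Th9 was lower than Th17 by -1.38 ± 0.11 (adjusted p = 7.11e-09), the order of Ms4a4b. Ms4a4c was dim in Th1, at 10.9 and 6.8, against -1.4 and -8.0 in Th9 and 1.9 and 4.2 in Th17. It passed against Th9 with an adjusted p of 0.0462 and Th1 was at least 1.07-fold higher, a call that ended in 8 of 11 alternatives. Ms4a6d, a relative known mainly from monocytes and macrophages, was at 230.4 and 190.4 in Th1, 35.2 and 64.4 in Th9, and 33.0 and 26.3 in Th17. It was higher in Th1 than in Th9 by 1.62 ± 0.11 and than in Th17 by 1.89 ± 0.11 (limma adjusted p = 4.13e-09 and 4.24e-10).

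Of 20 listed Ms4a family genes other than Ms4a4b, 6 were tested. Between Th1 and Th9, 3 were higher and 2 lower in Th1, beside 4.82 and 5.81% of all genes. Between Th1 and Th17, 1 was higher and 2 lower, beside 7.39 and 7.48%. The 2 lower genes were Tmem176a and Tmem176b, distant relatives found in antigen-presenting and Th17 cells. Tmem176b was at 377.3 and 318.9 in Th1, 1064.4 and 1350.2 in Th9, and 1909.1 and 1505.5 in Th17, the reverse of the Ms4a4b order between Th1 and the others. Ms4a7 did not pass in any comparison (0.02 ± 0.11 for Th1 minus Th9). Ms4a1, the B cell antigen CD20, was above background on 1 array, at 15.4 in 1 Th1 sample. Myeloid markers were given the same test beside these genes: of 8 tested, Mpeg1 was higher in Th1 than in either other subset and 6 did not pass in any comparison. Of all genes, 1.83% were higher in Th1 than in both others. Adgre1 was higher in Th9 than in either other subset, at 0.9 and -0.2 in Th1, 34.1 and 21.3 in Th9, and -0.1 and 0 in Th17. The summed intensity of the 8 was 397.7 and 289.2 in Th1, 395.3 and 339.4 in Th9, and 403.4 and 393.8 in Th17, and Cd14 and Itgam were below the threshold on all 6 arrays. Their part in the Ms4a results was not tested.

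The Ms4a4b promoter is shown as the window of the gene whose cluster neighbour moved with it against Th9. It lies at chr19:11443308-11443607 on the plus strand (GRCm38.p6), and capitals mark the AP-1 letters TGANTCA.
Ms4a4b: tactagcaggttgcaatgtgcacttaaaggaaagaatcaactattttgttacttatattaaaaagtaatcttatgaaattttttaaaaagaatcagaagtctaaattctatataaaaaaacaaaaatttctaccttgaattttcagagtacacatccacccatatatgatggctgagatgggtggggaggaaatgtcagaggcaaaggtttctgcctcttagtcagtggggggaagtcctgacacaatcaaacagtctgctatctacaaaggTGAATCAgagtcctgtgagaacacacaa
That match spans bases 22 to 28 after the annotated start, and AP-1 letters occur in 7.81% of RefSeq promoters. The window has 35.7% G and C bases, below the lower quartile of 45.7% over all promoters.

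Gpr18 encodes a receptor of lymphocytes for lipid-derived ligands. It read 896.6 and 776.6 in Th1, 212.6 and 252.8 in Th9, and 756.8 and 707 in Th17. Th9 stood well below the other 2 subsets, while Th1 exceeded Th17 by less. Th1 minus Th9 was 1.91 ± 0.11 on the log2 scale, a 3.76-fold difference and the 9th highest of all genes. Th1 minus Th17 was 0.55 ± 0.11, or 1.46-fold, with 352 genes above it in that comparison. It fell to 0.22 with each array scaled to its median, a setting that moved the median of all genes to -0.15. Gpr18 was lower in Th9 than in Th17 by a log2 difference of -1.37 ± 0.11 (limma adjusted p = 7.85e-09).

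The Gpr18 promoter is shown because it alone among the 9 windows holds the interferon response letters. It lies at chr14:121915839-121916138 on the minus strand (GRCm38.p6). Capitals mark the interferon response letters, GAAA repeated after any 2 bases, from base -41 to -32, and directly after them a match to the Runx letters on the other strand, from -31 to -26.
Gpr18: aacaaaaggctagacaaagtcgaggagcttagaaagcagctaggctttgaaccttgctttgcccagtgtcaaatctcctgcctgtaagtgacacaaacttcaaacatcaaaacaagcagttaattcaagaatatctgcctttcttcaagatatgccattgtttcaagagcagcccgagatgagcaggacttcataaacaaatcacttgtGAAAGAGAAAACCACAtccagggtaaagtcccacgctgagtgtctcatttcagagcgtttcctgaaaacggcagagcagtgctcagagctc
Interferon response letters occur in 3.44% of RefSeq promoters. The STAT letters TTCNNNGAA were found in none of the 9 windows and in 8.3% of all promoters.

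Gpr183, the neighbour of Gpr18 in the genome and a receptor for oxysterols that guides lymphocytes within lymphoid organs, shared only part of the Gpr18 pattern. It was at 227.2 and 172.7 in Th1, 155.0 and 177.6 in Th9, and 438.1 and 489.3 in Th17. Its highest level was thus in Th17, and Th1 was lower than Th17 by -0.63 ± 0.11 (limma adjusted p = 0.000571), a call that ended without background correction (-0.746, adjusted p = 0.105). Th1 was higher than Th9 by 0.52 ± 0.11 (adjusted p = 0.00433), which also ended there and under median scaling of the arrays (0.225, adjusted p = 0.326). Th9 was lower than Th17 by -1.14 ± 0.11 (adjusted p = 2.49e-07). Lpar6, a receptor for lysophosphatidic acid, had the same order, at 450.8 and 352.1 in Th1, 186.3 and 242.2 in Th9, and 1216.3 and 1045.1 in Th17.

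Of 36 listed receptors for lipids, metabolites and acid, 20 were tested. Between Th1 and Th9, 5 were higher and 5 lower in Th1, beside 4.82 and 5.81% of all genes. The median of the 20 was -0.08 beside -0.01 for all genes. Besides Gpr183 and Lpar6 the higher ones included Gpr65, a proton sensor (0.90 ± 0.11), and Fpr2, a formyl peptide receptor, which was at least 1.75-fold higher in Th1 because Th9 was not above background. Between Th1 and Th17, 2 were higher and 9 lower in Th1, beside 7.39 and 7.48% of all genes. The median was -0.18 beside -0.004 for all genes. Cysltr1, a leukotriene receptor, was lower in Th1 (-2.34 ± 0.11), as was Ltb4r1, a receptor for leukotriene B4 (-1.25 ± 0.11). In this list Gpr65 and Fpr2 were those higher in Th1 than in both others, and each of their Th1 calls ended without background correction. The Gpr65 call against Th17 ended in 4 of 13 alternatives.

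P2ry14 read 788.2 and 608.2 in Th1, 235.3 and 257.5 in Th9, and 75.2 and 74 in Th17. The 3 subsets formed 3 steps with no overlap. A second probe read 582.5 and 497.6 in Th1, 173.6 and 213.7 in Th9, and 64.2 and 52.9 in Th17, the same steps. The third probe passed the threshold on 1 Th1 array only, at 11.1, and was left out of the test. Th1 exceeded Th9 by 1.61 ± 0.11 and Th17 by 2.81 ± 0.11 on the log2 scale for the main probe. P2ry14 was higher in Th9 than in Th17 by 1.20 ± 0.11, or 2.31-fold (limma adjusted p = 5.62e-08), and the second probe gave 1.10 ± 0.11.

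Gpr171, P2ry13 and P2ry12 lie near P2ry14 in the genome. Gpr171 was at 1065.8 and 816.2 in Th1, 1068.7 and 1367.7 in Th9, and 1217.4 and 1233.3 in Th17, and did not pass in any comparison (-0.08 ± 0.11 for Th1 minus Th9). P2ry12 and P2ry13, receptors for ADP, were below the threshold on all 6 arrays. Of 26 listed purine and UDP-sugar genes, 12 were tested. Against Th9, beside 4.82 and 5.81% of all genes, 0 were higher in Th1 and 2 were lower (4 of the 12, in either direction, had an unadjusted p under 0.05 in limma). They were P2ry1, another ADP receptor, and P2ry10. P2ry1 was at 34.5 and 16.6 in Th1, 249.8 and 282.9 in Th9, and 23.5 and 15.0 in Th17, so it stood apart in Th9 (-1.77 ± 0.12 for Th1 minus Th9, limma adjusted p = 1.52e-09). Against Th17, beside 7.39 and 7.48% of all genes, 0 were higher in Th1 and 1 was lower (3 had an unadjusted p under 0.05). The lower gene was Nt5e, the CD73 enzyme that makes adenosine (-1.88 ± 0.11, limma adjusted p = 1.82e-10). Ugp2, which makes the ligand UDP-glucose, did not pass in any comparison (-0.15 ± 0.11 against Th9 and -0.14 ± 0.11 against Th17). Among the other P2 receptors tested, P2rx3, P2rx4, P2rx5, P2rx6 and P2rx7 did not pass in any comparison.

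RefSeq lists 4 start windows for P2ry14, and the most upstream is shown because its T cell factor letters differ from those of Gpr18 and Plac8. It lies at chr3:59153443-59153742 on the minus strand (GRCm38.p6), with the AP-1 letters from base -202 to -196 and the GATA letters AGATAA, read on the other strand, from -72 to -67 in capitals.
P2ry14: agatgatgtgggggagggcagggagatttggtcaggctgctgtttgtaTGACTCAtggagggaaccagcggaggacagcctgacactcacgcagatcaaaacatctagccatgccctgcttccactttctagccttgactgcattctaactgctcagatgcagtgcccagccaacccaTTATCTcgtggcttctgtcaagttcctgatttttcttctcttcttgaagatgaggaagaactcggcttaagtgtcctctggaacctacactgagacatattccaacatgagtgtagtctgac
GATA letters occurred in 3 of the 4 P2ry14 windows, in no other window of these genes and in 11.2% of all promoters. The kappaB letters, GGGA and CC with any 4 bases between, were found in 1 P2ry14 window and in 20.7% of all promoters.

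Serpine2 read 1396.1 and 1206.2 in Th1, 744.6 and 877.1 in Th9, and 142 and 125.3 in Th17, by its 1 probe. Here Th9 lay nearer to Th1 than to Th17, and no arrays of different subsets overlapped. Th1 exceeded Th9 by 0.91 ± 0.11 on the log2 scale, or 1.88-fold, with 90 genes above it. Th1 exceeded Th17 by 3.14 ± 0.11, or 8.83-fold, the 3rd highest of all genes. Serpine2 was higher in Th9 than in Th17 by 2.23 ± 0.11, or 4.7-fold (limma adjusted p = 7.16e-12), which was the 20th highest difference of that comparison. Its promoter window has 77.7% G and C bases, above the upper quartile of 61.7%, and held none of the 8 motifs.

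Other serpins differed in both directions. Of 27 listed, 8 were tested, with 1 higher and 1 lower in Th1 than in Th9, and 2 higher and 2 lower than in Th17. The shares of all genes were 4.82 and 5.81% against Th9, and 7.39 and 7.48% against Th17, so with 8 genes these counts set serpins little apart. Serpina3f was at 433.7 and 395.1 in Th1, 219.9 and 301.5 in Th9, and 235.9 and 219.2 in Th17, and was higher in Th1 than in Th9 by 0.89 ± 0.11 and than in Th17 by 1.11 ± 0.11. Between Th9 and Th17 it did not pass (0.22 ± 0.11, limma adjusted p = 0.213). Serpinb1a, an inhibitor of neutrophil proteases, was above background in Th17 only, where it was at least 2.4-fold higher than in Th1. Serpinf1 was lower in Th1 than in either other subset. Among proteases and receptors of the Serpine2 pathway, 9 of 16 listed were tested. F2r, the thrombin receptor PAR1, was at 1434.2 and 1163.7 in Th1, 2639.3 and 2576.1 in Th9, and 1275.2 and 1025.1 in Th17. F2r was lower in Th1 than in Th9 by -0.74 ± 0.12 (limma adjusted p = 0.000165) and higher in Th1 than in Th17 by 0.53 ± 0.12 (adjusted p = 0.00314), and both calls ended without background correction. It was higher in Th9 than in Th17 by 1.27 ± 0.12 (adjusted p = 8.17e-08). F2 itself, the prothrombin gene, was above background on 1 array of each subset and did not pass.

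Markers of other cell types were read beside these differences, since several moved with them. Between Th9 and Th17, 3 of 7 tested markers of B cells were higher in Th9, as P2ry14 and Serpine2 were, and 1 was lower, beside 10 and 8.94% of all genes. Igkc, an immunoglobulin light chain, was at 1089.3 and 952.3 in Th1, 1177.5 and 1600.5 in Th9, and 61.9 and 65.9 in Th17. Cd79b, part of the B cell receptor, was at 139.0 and 117.1 in Th1, 232.0 and 289.1 in Th9, and 42.7 and 53.3 in Th17, and Fcmr was the third. Ighm, the immunoglobulin M heavy chain, went the other way, at 784.9 and 803.8 in Th1, 630.5 and 705.5 in Th9, and 1139.7 and 1067.3 in Th17 (Th9 minus Th17 -0.57 ± 0.12, limma adjusted p = 0.00119). Cd22, Blk and Ebf1 did not pass between Th9 and Th17. Against Th17, 4 of the 7 (Igkc, Cd79b, Blk and Fcmr) were higher in Th1 and 0 lower, beside 7.39 and 7.48% of all genes. Igkc was higher in Th1 than in Th17 by 3.44 ± 0.12 (limma adjusted p = 1.06e-13), a larger difference than that of Serpine2 (3.14 ± 0.11). Against Th9, 1 was higher and 2 lower in Th1, beside 4.82 and 5.81%. The summed intensity of the 7 was 2220 to 2292.8 in Th1, 2552 to 3280.8 in Th9 and 1395.6 to 1493.8 in Th17, and Pax5, which defines the B lineage, was below the threshold on all 6 arrays.

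Of 10 red cell and platelet markers tested, 2 were higher in Th9 than in either other subset, while Ms4a4b and Gpr18 were lowest in Th9. Of all genes, 5.81% were higher in Th9 than in Th1 and 10% higher in Th9 than in Th17. The summed intensity of the 10 was 66.1 to 77.8 in Th1, 678.8 to 726.5 in Th9 and 90.2 to 196.7 in Th17. In Th9 alone most of it was Hba-a1, a haemoglobin chain, which was at 11.4 and 11.9 in Th1, 544.2 and 582.6 in Th9, and 27.3 and 24.4 in Th17. Hba-a1 was lower in Th1 than in Th9 by -3.0 ± 0.11 and higher in Th9 than in Th17 by 2.84 ± 0.11 (limma adjusted p = 1.64e-13 and 3.78e-13). Hbb-b1 passed in the same 2 comparisons, and the other 8 genes passed in none.

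Of 4 dendritic cell markers tested, Bst2, which interferon also induces, was higher in Th1 than in both others, as the 6 genes and 1.83% of all genes were. It was at 162.6 and 110.6 in Th1, 73.5 and 114.3 in Th9, and 114.7 and 84.9 in Th17, with Th1 differences of 0.66 ± 0.12 and 0.64 ± 0.12 (limma adjusted p = 0.000678 and 0.000737). Both calls ended without background correction and under median scaling. Batf3, also a T cell gene, was higher in Th9 than in Th17 by 2.84 ± 0.11 and in Th1 than in Th17 by 2.49 ± 0.11. Siglech, named after its values were seen, was at 193.6 to 260.8 over the 6 arrays and did not pass. The summed intensity of the 4 was 616 to 780.9 in Th1, 874 to 958.1 in Th9 and 377.2 to 412.7 in Th17, and Xcr1 and Itgax were below the threshold on all 6 arrays.

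Of 9 tested markers of natural killer and CD8 T cells, 4 were higher and 1 lower in Th9 than in Th17, beside 10 and 8.94% of all genes. Cd8b1 was at 1163.9 and 1043.3 in Th1, 1145 and 1257.7 in Th9, and 717.8 and 552.2 in Th17, while Cd8a was below the threshold on all 6 arrays, as was Ncr1. Cd8b1 was higher in Th1 than in Th17 by 1.10 ± 0.11 and in Th9 than in Th17 by 0.96 ± 0.11, but both calls ended without Th1 replicate 2 (-0.346 and -0.068), where another probe stood for the gene. Klrd1, a natural killer receptor chain also found on T cells, was at 449.4 and 360.5 in Th1, 348.7 and 282.8 in Th9, and 870.2 and 802.9 in Th17, and was the lower one (-1.19 ± 0.13). Between Th1 and Th9, 2 of the 9 (Klra4 and Klrd1) were higher and 0 lower in Th1, beside 4.82 and 5.81% of all genes. Between Th1 and Th17, 1 was higher and 1 lower, beside 7.39 and 7.48%. The summed intensity of the 9 was 2737.3 to 3282.5 in Th1, 2993.6 to 3172.9 in Th9 and 3000.8 to 3331.2 in Th17. The part of these markers in the differences of the 6 genes was not tested.

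**Figure D3:**
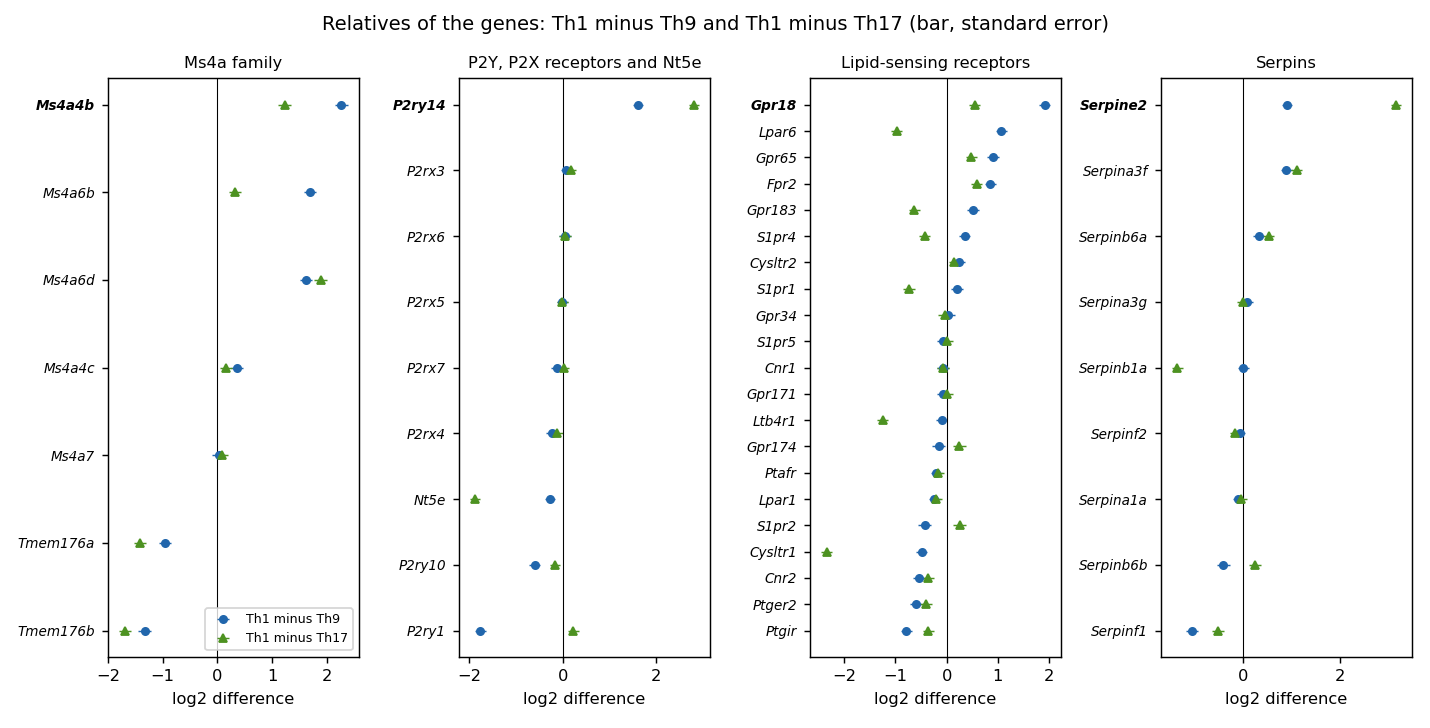
Log2 difference (horizontal axis) of Th1 minus Th9 (circles) and Th1 minus Th17 (triangles), with standard errors as bars, for tested relatives of Ms4a4b, P2ry14, Gpr18 and Serpine2, which are in bold. In each panel the bold gene has the highest Th1 minus Th9 value of the genes drawn, and Serpina3f nearly equals Serpine2 there; the bold genes are placed by values that chose them.

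The genes whose profile over the 6 arrays lay nearest to each of the 6 were found from the root mean square difference of log2 levels after centring each gene on its own mean. For Plac8 the nearest was Cxcr3, the receptor for interferon-induced chemokines that T-bet activates, at 0.21, followed by Onecut2 at 0.27 and the interferon-induced GTPase Gbp2 at 0.46. For Onecut2 they were Cxcr3 at 0.18, Gbp2 at 0.26 and Plac8 at 0.27. Cxcr3 was at 282.0 and 272.4 in Th1, 10 and 15.4 in Th9, and 5.4 and 13.6 in Th17, so it too was near background outside Th1. Plac8 and Onecut2 were thus among each other's 5 nearest genes, although Plac8 was well above background in every subset and Onecut2 was not. This likeness depends on the floor that sets the Onecut2 levels in Th9 and Th17. Without background correction 0 of the 5 genes nearest to Plac8 were found again, so neither Onecut2 nor Cxcr3 was among them. For Onecut2 it was 1 of the 5.

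For Ms4a4b the nearest genes were Irgm2, an interferon-induced GTPase, at 0.29, Gpr18 at 0.30, the MHC class I gene H2-Q7 at 0.32, Gbp2 at 0.32 and Nlrc5, the activator of MHC class I genes, at 0.35. For Gpr18 the nearest was Ms4a6b at 0.11, the cluster neighbour of Ms4a4b, followed by the sialyltransferase gene St3gal6 at 0.20, Smpdl3a at 0.27, Ipcef1 at 0.28 and Samhd1, which degrades deoxynucleotides, at 0.28. Smpdl3a was at 171.8 and 129.9 in Th1, 18.3 and 10.5 in Th9, and 231.1 and 224.1 in Th17, so the profiles near Gpr18 are those of genes low in Th9 more than of genes high in Th1.

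For P2ry14 the nearest were Ifitm1 at 0.14 and Ifitm3 at 0.20, which encode interferon-induced membrane proteins that restrict viruses. Ifitm1 was at 1901.3 and 1542.3 in Th1, 728.3 and 855.4 in Th9, and 295.4 and 243.6 in Th17. Next came Nkg7, a cytotoxic granule protein, at 0.37, the chemokine Ccl5 at 0.38 and Serpine2 at 0.43. For Serpine2 they were Ifitm3 at 0.27, Ifitm1 at 0.32, Nkg7 at 0.33, P2ry14 at 0.43 and the zinc finger repressor Zbtb32 at 0.47. P2ry14 and Serpine2 thus had 3 neighbours in common and were each among the other's 5. Which genes rank nearest depended on the processing: of the 5, the number found again was 0 to 3 without background correction, 0 to 4 with the mean of all probes, and 3 to 5 with an offset of 16.

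**Figure D4:**
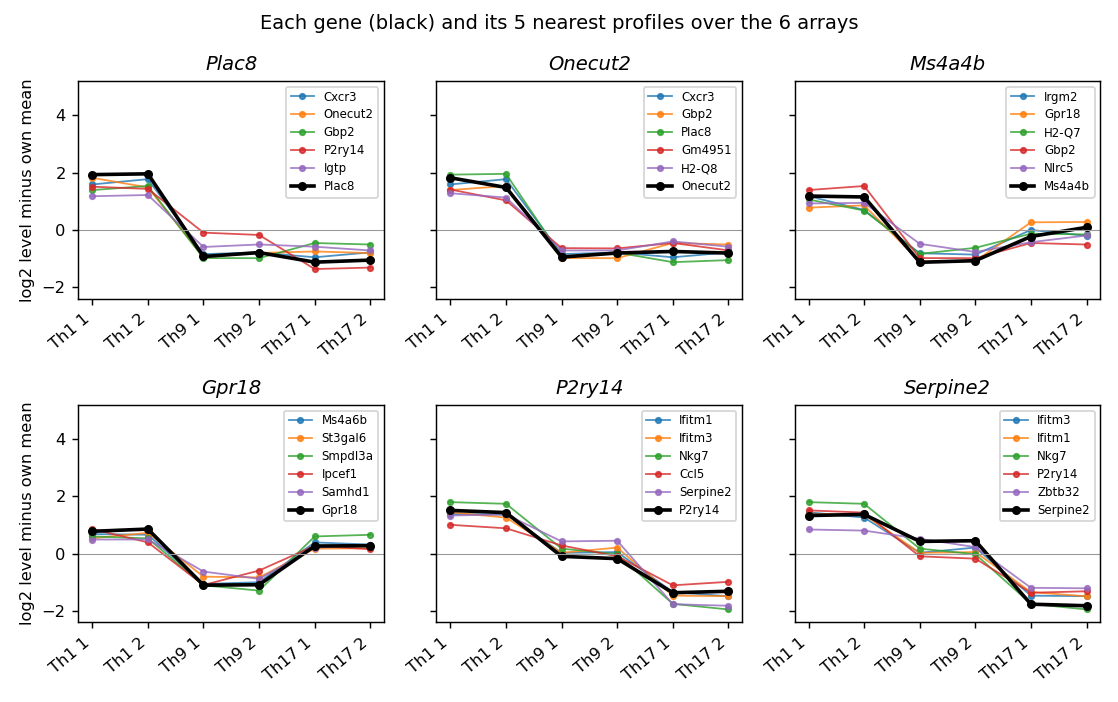
Log2 level minus the gene's own mean over the 6 arrays (vertical axis) on each array (horizontal axis, 2 each of Th1, Th9 and Th17) for each of the 6 genes in black and its 5 nearest genes in colour. Plac8 and Onecut2 drop once after Th1, Ms4a4b and Gpr18 are lowest in Th9, and P2ry14 and Serpine2 step down to Th17.

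The distances between the 6 genes come from the same levels as the 3 patterns, so they restate those pairs and add no further evidence for them. The smallest were 0.27 for Onecut2 and Plac8, 0.30 for Gpr18 and Ms4a4b, and 0.43 for P2ry14 and Serpine2, and the largest was 1.52 for Gpr18 and Serpine2. These values describe 6 arrays of 3 subsets and carry no test. Of the 36 protein-coding genes nearest to the 6 in the RefSeq order (3 on each side), 25 were tested. Of those, 4 were higher and 1 lower in Th1 than in Th9, beside 4.82 and 5.81% of all genes. Against Th17, 1 was higher and 1 lower, beside 7.39 and 7.48%. The 4 were Ms4a6b, Gpr183, Ms4a4c and Coq2, a coenzyme Q enzyme next to Plac8 (0.43 ± 0.11 against Th9 and 0.64 ± 0.11 against Th17). Most tested neighbours of Plac8, Onecut2 and Serpine2 did not pass against Th9, with Coq2 and Sec31a, both near Plac8, as the exceptions.

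**Figure D5:**
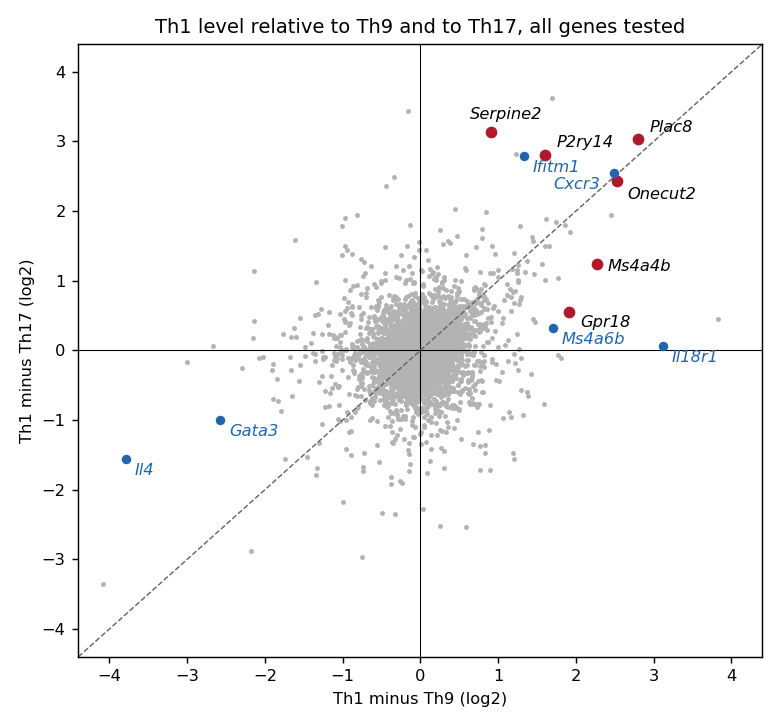
Log2 difference of Th1 minus Th9 (horizontal axis) and of Th1 minus Th17 (vertical axis) for the 12093 genes tested (grey), with the 6 genes in red and 6 others named in the text or defining the subsets in blue. Genes beyond the axis limits, such as Akr1c18 at -4.55 for Th1 minus Th9, are not drawn. Plac8 and Onecut2 lie near the dashed line of equal differences, Ms4a4b and Gpr18 below it, and P2ry14 and Serpine2 above it.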

How the data were processed

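Total RNA of the sorted cells was amplified to biotin-labelled cRNA for Illumina bead arrays, per the labels' protocols. The deposited value table holds array intensity per probe, linear and falling below 0 on every array as after background subtraction. The sources used here do not give the authors' software or scaling. A further table they deposited has 12 signal and detection columns that match no sample label, and they were not used.

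The intensities were corrected with normexp (offset 50), quantile normalized and taken to log2. A probe was above background where it exceeded the 95% point of noise, scaled from the values below 0 on its array. Probes above it on 2 or more arrays were kept, 22460 of 45281, of which 18614 had a name. Names came from the platform annotation, updated through RefSeq (GRCm38.p6) by gene identifier (28620 probes), accession (2637), symbol (2128) or synonym (2343), with 56 kept as given. The probe of highest mean level stood for its gene, leaving 12093 genes. The 3 comparisons came from 1 fit to all 6 arrays (limma 3.58.1, R 4.3.3; 16 prior and 3 residual degrees of freedom), with Benjamini-Hochberg adjustment over all genes, threshold 0.05. An SE is the model's. Where a subset was above background on 0 arrays, a fold is a bound against the dimmest detected level.

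The members, the 16 gene lists and the rules were chosen with earlier results of these data known. Named genes were the 6 members, 7 subset genes, up to 4 called genes of each list per comparison (all detected Ms4a and P2Y genes), the 5 nearest profiles and genome neighbours. 8 motifs were searched on both strands in the RefSeq promoters, where 5 of the 6 genes had a window that could be shown. Alternatives changed the background correction, offset, scaling, filter, probe summary, block and arrays fitted, and left out each array in turn.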

Additional observations from a re-analysis of the deposited data

How the results depend on the processing

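The Th9 against Th17 calls of Gpr18, Ms4a4b, P2ry14 and Serpine2 kept their direction and side of the threshold in all 13 alternatives, with log2 differences of -1.59 to -1.36, -1.55 to -0.54, 1.16 to 1.80 and 2.17 to 2.71 and adjusted p up to 0.0116, 0.0278, 0.0115 and 0.006. Plac8 (0.17 to 0.30, adjusted p 0.107 to 0.556) and Onecut2 passed in none. Onecut2, at background in both subsets, ranged from -1.525 (no background correction; -0.208 with an offset of 16) to 0.076 and changed sign when 1 array was left out, with values of -0.10 to 0.076 (0.019 without Th9 replicate 2, 0.038 without Th17 replicate 1 and 0.076 without Th17 replicate 2). The construction changes there, since another probe then had the highest mean. The Th1 differences of the 6 genes had the same sign in all 13, from 0.22 (Gpr18 against Th17, arrays scaled to their median) to 6.95 (Onecut2 against Th9, no background correction).

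Counts of genes past the threshold moved more. Without background correction they were 236 (Th1 against Th9), 314 (Th1 against Th17) and 674 (Th9 against Th17). With an offset of 16 they were 725 and 1109 for the Th1 comparisons, and with arrays scaled to their median 2733 for Th1 against Th17. Leaving out 1 array gave 741 to 1142, 1002 to 1699 and 1433 to 2550. The lowest of these came without Th9 replicate 1 (741) and without Th17 replicate 2 (1002 and 1433), and Th9 replicate 2 (833) and Th17 replicate 1 (1096 and 1487) also moved a count by over 1.5 times, as did Th9 replicate 1 for Th9 against Th17 (1486). With the replicate block the counts were 1255, 1764 and 2243, and no call of the 6 genes changed. Same-numbered arrays share only a number (their deviations correlated at -0.022, -0.028 and 0.019). The Ms4a4c call ended with the block (adjusted p = 0.0546). Of 179 called results of other listed genes, 107 no longer passed without background correction and 39 with an offset of 16. Ifng against Th9 also did not pass under median scaling or without Th9 replicate 2. Cd8b1 changed sign without Th1 replicate 2 (-0.346 to 1.215 for Th1 against Th17 and -0.068 to 1.073 for Th9 against Th17 when 1 array was left out), where its probe was chosen anew. Except where stated, the cause was not tested. With 2 arrays a subset, signal near background limits Onecut2 and the dim relatives most.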
